A study of Mus musculus with 30 samples.

Results

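The genes described here encode the nuclear-encoded parts of the last 3 complexes of oxidative phosphorylation, in cardiac myocytes of mice. They were taken from the count table by symbol, as every protein-coding row that begins with Uqcr, is Cyc1, begins with Cox4 to Cox8 or begins with Atp5. This gave 44 genes of 52550 in the table, of which 21950 were protein-coding: 9 of complex III, 18 of complex IV and 17 of complex V. Reads were numerous enough for a test in 42 of them. The testis-type subunit genes Cox7b2 and Cox8c did not pass the filter on low counts. The symbols miss Usmg5 and 2010107E04Rik, small membrane subunits of the ATP synthase, so the counts and sums of complex V are not complete.

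RNA-seq counts came from 30 libraries, 5 in each of 6 groups. The genotypes were wild type and Myh6-Cre:DspW/F, called heterozygotes here, in which the cardiac myocyte promoter Myh6 drives Cre recombinase and 1 allele of the desmoplakin gene Dsp is floxed. The ages were 3 months and 6 months, and at 6 months the mice either had regular activity or had been through endurance treadmill exercise, for which the design text gives 3 months in words that can mean its length or the time since. The series title calls the genotype a haplo-insufficient model of arrhythmogenic cardiomyopathy. The labels do not say whether wild-type mice carried Cre, nor whether the 5 libraries of a group came from 5 animals, so p-values measure the spread between libraries.

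Complex III takes electrons from ubiquinol and hands them to cytochrome c, complex IV passes them on to oxygen, and both pump protons across the inner mitochondrial membrane. Complex V, the ATP synthase, lets the protons flow back through a ring of c subunits and uses the rotation to make ATP. Core parts of each complex are made from mitochondrial DNA and the rest from nuclear genes, and the heart, which draws much of its energy from fatty acids, is among the tissues richest in them. Several complex IV subunits exist as a heart and muscle form and a widely expressed form.

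Depth and purity bear on all that follows. Total counts per library ran from 11232143 to 23710331, and the 44 genes took 1.94% to 4.35% of them, while the mitochondrial genome took 8.90% to 46.9%. Spike-in controls had a value for 3 of 23 in every 3-month library, for 11 or 18 in the 6-month regular-activity libraries and for 0 in the exercised libraries, so the sets of libraries follow age and exercise, and an age or exercise difference cannot be told apart from a difference between library sets. Genotype was compared within a set. Levels are in CPM, each count divided by the TMM-scaled library total. Wild types of 3 months averaged 1079 ± 295 CPM of Dsp (SD, n = 5) and heterozygotes of that age 765 ± 213. The regular-activity groups of 6 months had 784 ± 173 and 626 ± 41.1, the exercised groups 1561 ± 428 and 848 ± 90.5. Of the 3 genotype comparisons only the exercised one passed (-0.88 ± 0.19 SE on the log2 scale, adjusted p = 0.0287 by edgeR), and the library labelled heterozygote 3 at 3 months had 1126 CPM, against 573 to 741 in the other 4 and 752 to 1299 in the wild types of that age. The labelled cell type held: the 9 cardiac myocyte markers summed to between 53800 and 86288 CPM per library, with none at 0. Fibroblast markers summed to 175 to 202 CPM in 6-month wild type and 335 to 491 in heterozygotes, macrophage markers to 15.01 to 30.05 and 48.1 to 93.3. Exercised heterozygote 4 had the highest fibroblast sum of its group, 729 CPM, and exercised wild type 1 the highest endothelial sum, 1167 CPM. Bulk libraries cannot tell fewer cells of a type from less RNA per cell.

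Differences are edgeR quasi-likelihood log2 fold changes with their standard error (SE), and a gene counts as called at a Benjamini-Hochberg adjusted p under 0.05 over all 15587 genes tested. After exercise in wild type, 9 of 42 members were called lower and 3 called higher, where 9.69% of all genes tested were called. The Rieske protein gene Uqcrfs1, Cox8a and the ATP synthase epsilon gene Atp5e fell most, and Uqcrb, Uqcrh and Cox6b1 rose. Heterozygotes had 9 members called lower and 2 called higher, against 8.82% of all genes called, and 10 members were called in both genotypes. No member was called between genotypes at any age or activity, where 0.135% to 0.404% of all genes were.

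Promoter sequences of 4 of these genes are shown because they moved together or apart with exercise: Uqcrfs1, Cox8a and Atp5e fell in both genotypes, and Uqcrh rose in wild type. The letters come from RefSeq on GRCm38.p6, of which 31 of the 44 members had an entry, and are cut to the bases before both the RefSeq and the GENCODE start. All 4 genes lie on the minus strand, and each run is printed 5′ to 3′ in the gene's direction. Capitals mark the ETS core CCGGAAG, which reads CTTCCGG on the other strand.
Uqcrfs1, chr13:30545363-30545566, minus strand: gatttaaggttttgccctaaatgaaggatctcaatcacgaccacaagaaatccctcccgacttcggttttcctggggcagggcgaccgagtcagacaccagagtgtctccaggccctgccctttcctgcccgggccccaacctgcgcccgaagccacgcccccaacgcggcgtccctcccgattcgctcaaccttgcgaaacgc
Cox8a, chr19:7217617-7217866, minus strand: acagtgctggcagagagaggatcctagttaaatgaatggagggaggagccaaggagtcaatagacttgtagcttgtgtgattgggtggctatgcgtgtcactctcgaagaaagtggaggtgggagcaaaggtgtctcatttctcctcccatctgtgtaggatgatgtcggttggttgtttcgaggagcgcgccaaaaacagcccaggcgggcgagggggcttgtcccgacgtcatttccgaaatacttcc
Atp5e, chr2:174464106-174464351, minus strand: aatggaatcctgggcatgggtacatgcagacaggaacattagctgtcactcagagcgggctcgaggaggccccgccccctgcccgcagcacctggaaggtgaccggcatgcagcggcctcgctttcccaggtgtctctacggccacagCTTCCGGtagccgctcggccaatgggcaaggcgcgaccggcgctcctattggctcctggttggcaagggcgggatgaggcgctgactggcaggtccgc
Uqcrh, chr4:116075072-116075320, minus strand: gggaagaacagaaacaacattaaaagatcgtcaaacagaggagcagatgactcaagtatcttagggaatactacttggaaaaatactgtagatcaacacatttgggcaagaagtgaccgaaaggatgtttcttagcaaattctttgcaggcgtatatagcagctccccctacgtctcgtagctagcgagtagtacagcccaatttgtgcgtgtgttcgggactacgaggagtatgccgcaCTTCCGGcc
The runs hold 204, 250, 246 and 249 bases, with a GC content of 60.8%, 52.8%, 65.9% and 45.8%. In Atp5e the ETS match begins 102 bases before the RefSeq start and in Uqcrh 10 bases before it. Uqcrfs1 and Cox8a hold no match to any of the 4 motifs searched, which says only that these letters are not in these windows.

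The motifs were searched on both strands in the 250 bases before the RefSeq start, in 34 windows of 31 members (Atp5c1, Atp5d and Atp5j have 2 windows) and in all 32851 windows of the table. The ETS core CCGGAAG, bound by GABP among other ETS factors, was in 8 member windows (23.5%) and in 6.91% of all windows. The core CGCANGCG of NRF1, a known regulator of respiratory chain genes, was in 7 member windows (20.6%) and in 6.76% of all. The estrogen-related receptor motif TCAAGGTCA was in 1 member window, that of Atp5g3 (2.94% against 0.387%), and the YY1 core AAGATGGCG in 1, that of Atp5j (2.94% against 0.606%). NRF1 cores were in windows of Atp5c1, Atp5g2, Atp5h, Atp5j, Atp5k, Atp5l and Cox6a1, and ETS cores in those of Atp5e, Atp5h, Atp5j, Atp5l, Cox6a1, Cox6b1, Uqcr11 and Uqcrh. Each motif was counted on its own and matches of different motifs may share bases, and a match is a description of the letters, not of binding.

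Levels are compared between genes as CPM per kilobase of a reference transcript, averaged over all 30 libraries. In complex V the beta subunit gene Atp5b, which carries the catalytic sites, had the highest level of all members, 3494 ± 639 CPM per kb (SD, n = 30 libraries), followed by the alpha subunit gene Atp5a1 with 2225 ± 350 and the gamma subunit gene Atp5c1 with 1080 ± 139. Complex IV was led by the heart-type Cox6a2 with 2913 ± 488, by Cox6b1 with 2912 ± 596, by the heart-type Cox8b with 1653 ± 506 and by Cox4i1 with 1536 ± 317. Complex III was led by Uqcr11 with 1004 ± 189 and the core protein gene Uqcrc1 with 920 ± 224, with the other core protein gene Uqcrc2 at 287 ± 50.1 and Cyc1, the cytochrome c1 gene, at 382 ± 83.3. Heart and muscle forms stood above the widely expressed forms: Cox6a1 had 161 ± 35.2, Cox8a 310 ± 83.5, and Cox7a2 283 ± 42.8 against 1156 ± 273 for Cox7a1.

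**Figure D1:**
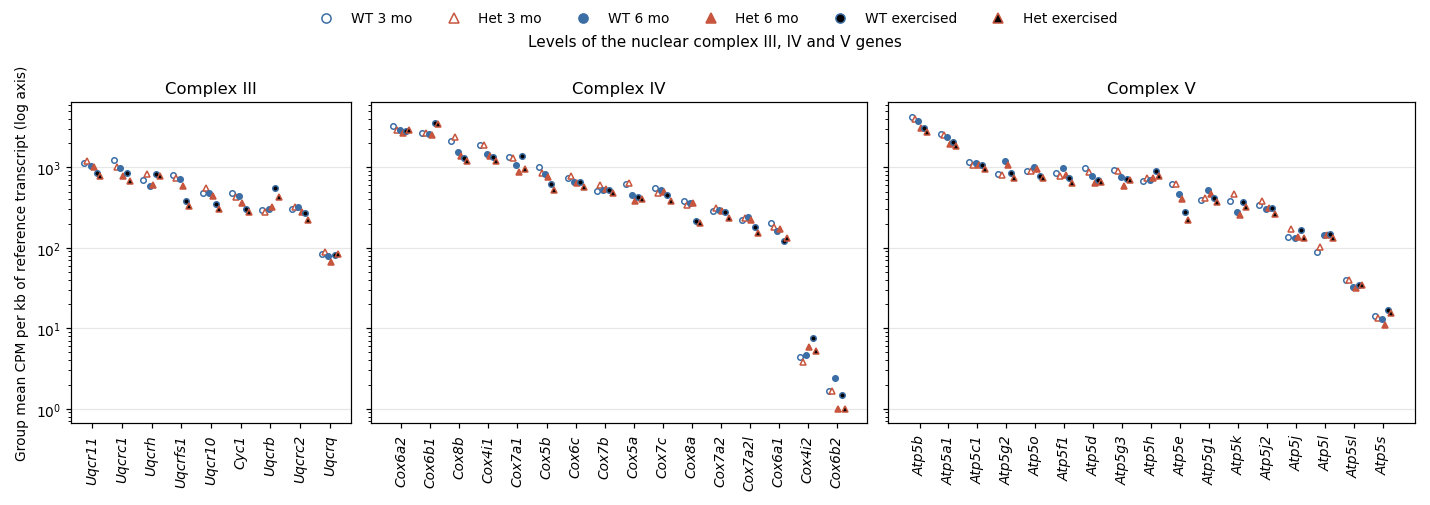
Group mean CPM per kilobase of reference transcript (log axis) of the 42 tested genes, by complex and in order of the mean over 30 libraries; circles are wild type and triangles heterozygotes, open at 3 months, filled at 6 months and black with exercise. Atp5b and Cox6a2 lead, Cox4i2, Cox6b2 and Atp5s lie far below the rest, and Uqcrfs1, Cox8a and Atp5e have their exercised groups at the bottom of their own spread.

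Some members were near absent. Cox4i2, the form of Cox4 known from lung and low oxygen, had 5.24 ± 2.23 CPM per kb, and the testis form Cox6b2 had 1.53 ± 0.98. Cox7b2 reached at most 0.625 CPM in any library and Cox8c had 0 counts in all 30. Symbol choice also brought in Atp5s and Atp5sl, which are not subunits of the enzyme and were at 13.9 ± 2.76 and 35.7 ± 7.32 CPM per kb. Cox7a2l is a factor of respiratory supercomplexes, at 209 ± 39.1. The value of Atp5g1, a c-ring gene with 431 ± 81.4, rests on a reference transcript of 4715 bases and is lower than a shorter transcript would give.

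Sequence shared with other annotated genes, either copies elsewhere or neighbours that overlap on the other strand, makes some counts uncertain. All 50-base words of the reference transcript of Atp5g2 occur in other annotated genes (100%), as do 84.8% for Atp5l, 53.0% for Cox7c, 50.5% for Atp5h, 50.3% for Atp5o, 43.4% for Uqcrb, 38.7% for Atp5f1, 32.05% for Cox5a, 25.9% for Cox5b and 24.8% for Uqcrc2. For Uqcrc2 the only other gene is Pdzd9, a neighbour on the opposite strand, and part of the share of Atp5f1 and Cox5a also lies in opposite-strand neighbours. Atp5o overlaps exons of other genes on both strands. The share is 0 for Uqcrfs1, Cyc1, Uqcr10, Uqcrc1, Cox8a, Cox8b, Cox6b1, Cox7a1, Atp5e, Atp5d and Atp5g3.

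In complex III, exercise in wild type moved 5 of 9 genes past the threshold, 3 lower and 2 higher, where 9.69% of all genes tested were called. In heterozygotes 3 of 9 were called, all lower, against 8.82% of all genes. Uqcrfs1 (chromosome 13, 30540308 to 30545362), the Rieske iron-sulfur protein that takes the first electron from ubiquinol, had 975, 974, 942, 1032 and 1009 CPM in the 5 regular-activity wild types and 446, 573, 575, 607 and 419 in the exercised ones. Every exercised library lay below every regular-activity one, and the log2 fold change was -0.91 ± 0.15 (edgeR adjusted p = 0.000127). In heterozygotes the values were 799, 852, 714, 837 and 759 CPM against 478, 460, 561, 346 and 437 with exercise, again without overlap (-0.80 ± 0.15, adjusted p = 0.000658). The call held under every alternative run in both genotypes.

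Cyc1 (chromosome 15, 76343523 to 76346260), whose heme passes electrons on to cytochrome c, fell alongside. Regular-activity wild types had 695, 649, 628, 735 and 634 CPM and exercised ones 382, 496, 530, 495 and 399, groups that did not overlap (-0.54 ± 0.11, edgeR adjusted p = 0.00196). Heterozygotes averaged 549.6 ± 29.2 CPM against 428 ± 65.8 (-0.36 ± 0.11, adjusted p = 0.0374), a call lost in 7 of 10 fits that left out 1 library, heterozygotes 1 to 5 at 6 months and exercised 2 and 4. Of 11 other alternatives, 6 kept this call, and it was lost with the GC or the length trend removed, among others. The small subunit gene Uqcr10 averaged 207 ± 25.3 against 151 ± 20.9 CPM in wild type (-0.46 ± 0.12, adjusted p = 0.0107) and 190 ± 25.4 against 130 ± 11.9 in heterozygotes (-0.55 ± 0.12, adjusted p = 0.00292). With the GC trend removed, Uqcr10 in wild type was no longer called (adjusted p = 0.156).

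Uqcrb and Uqcrh, small subunits of which Uqcrh is the acidic hinge protein at the cytochrome c site, went the other way. Uqcrb had 197, 133, 138, 189 and 150 CPM in regular-activity wild types and 277, 334, 300, 344 and 227 in exercised ones, all higher (0.88 ± 0.16, edgeR adjusted p = 0.000414). Its heterozygote values were 182, 136, 153, 176 and 224 against 228, 249, 287, 166 and 214, which overlap (0.39 ± 0.16, adjusted p = 0.119). The difference between the genotypes in this response was -0.48 ± 0.22 (edgeR adjusted p = 0.985), and of all members Uqcrb alone had an unadjusted p under 0.05 in that test. Uqcrh averaged 319 ± 51.7 against 451 ± 44.7 CPM in wild type (0.50 ± 0.13, adjusted p = 0.0125) and 332 ± 50.7 against 425 ± 83.0 in heterozygotes (0.36 ± 0.13, adjusted p = 0.0865). Uqcrc1, Uqcrc2, Uqcr11 and Uqcrq were not called with exercise in either genotype by edgeR, with fitted values from -0.36 to 0.33. DESeq2 called Uqcrc2 and Uqcr11 lower in heterozygotes (adjusted p = 0.0217 for each), as did limma-voom, run here with sample quality weights throughout, and edgeR without the filter on low counts, with DESeq2 size factors or without exercised heterozygote 1. With the GC trend removed, edgeR called Uqcrc2 lower in both genotypes (adjusted p = 0.037 in wild type and 0.015 in heterozygotes). With the length trend removed it called Uqcr11 lower in both (adjusted p = 0.0178 in wild type and 0.0139 in heterozygotes).

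Complex IV had 4 of 16 tested genes called in each genotype, against 9.69% of all genes in wild type and 8.82% in heterozygotes, the same genes in both: Cox8a, Cox5b and Cox7a2l lower and Cox6b1 higher. Cox8a (chromosome 19, 7215153 to 7217616) had 183, 186, 172, 218 and 221 CPM in regular-activity wild types and 112, 113, 143, 110 and 112 in exercised ones. In heterozygotes it had 183, 194, 187, 212 and 215 against 119, 112, 109, 119 and 93.9. Neither pair of groups overlapped, and the log2 fold changes were -0.73 ± 0.12 (edgeR adjusted p = 0.000112) and -0.84 ± 0.12 (adjusted p = 2.32e-05). Its heart-type counterpart Cox8b was not called with exercise, at 552 ± 97.6 against 474 ± 55.9 CPM in wild type. Cox6a1 was not called by edgeR, but limma-voom called it lower in wild type and heterozygotes (adjusted p = 0.00777 and 0.0238). DESeq2 called Cox6a1 lower in heterozygotes (adjusted p = 0.0365). By limma-voom, Cox7a1 was also called higher in wild type (adjusted p = 0.0194) and Cox7c lower in heterozygotes (adjusted p = 0.044).

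Cox6b1 (chromosome 7, 30616861 to 30626151), which faces the intermembrane space, had 1671, 1512, 1263, 1811 and 1691 CPM in regular-activity wild types and 2373, 2535, 2192, 1984 and 1972 in exercised ones, without overlap (0.48 ± 0.14, edgeR adjusted p = 0.0239). The heterozygote libraries had 1286, 1387, 1334, 1708 and 2005 against 2198, 2263, 2354, 1580 and 2311, where exercised heterozygote 4 is the low one (0.47 ± 0.14, adjusted p = 0.0279). Cox6b1 was lost in 3 of 10 wild-type fits without 1 library (wild types 2 and 3 at 6 months, exercised 2) and in 7 of 10 heterozygote ones (6-month 1, 2 and 3 and exercised 1, 2, 3 and 5). Cox7a2l fell by 0.39 ± 0.11 on the log2 scale in wild type (adjusted p = 0.0171) and by 0.55 ± 0.11 in heterozygotes (adjusted p = 0.0012). Cox5b, a zinc-binding subunit, fell by 0.42 ± 0.13 (adjusted p = 0.0414) and by 0.52 ± 0.13 (adjusted p = 0.0123). In wild type, Cox5b was lost in 7 of 10 fits without 1 library (6-month 1, 4 and 5 and exercised 1, 2, 4 and 5), and Cox7a2l in 3 (6-month 4 and exercised 1 and 5). Of 11 other alternatives, Cox5b kept its wild-type call in 6 and Cox7a2l in 10. Cox5b lost it with the GC or the length trend removed, among others.

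In complex V, 3 of 17 genes were called lower in wild type and the same 3 in heterozygotes, where 5.05% and 3.48% of all genes were called lower. Atp5e (chromosome 2, 174461072 to 174464105), the smallest subunit of the rotating F1 stalk, had 215, 189, 163, 217 and 210 CPM in regular-activity wild types and 113, 123, 115, 119 and 121 in exercised ones. Heterozygotes had 151, 180, 163, 191 and 176 against 102, 94.7, 125, 68.0 and 79.5. Both pairs of groups stood apart, with log2 fold changes of -0.75 ± 0.12 (edgeR adjusted p = 7e-05) and -0.87 ± 0.12 (adjusted p = 1.13e-05), and the call held in every alternative run. Atp5g2, 1 of 3 genes for the same mature c-ring protein, fell by 0.49 ± 0.12 and 0.51 ± 0.12 (adjusted p = 0.0088 and 0.00639), calls lost with the GC trend removed (adjusted p = 0.16 and 0.0706). Atp5o, the OSCP protein that holds the F1 head to its stator, fell by 0.34 ± 0.10 and 0.40 ± 0.10 (adjusted p = 0.0289 and 0.0116). Its wild-type call was lost in 6 of 10 fits without 1 library (6-month 1, 4 and 5 and exercised 1, 4 and 5), and both Atp5o calls were lost with the GC trend removed. Atp5s rose in heterozygotes (0.50 ± 0.14, adjusted p = 0.0216), a call lost without any of 7 libraries (6-month 2, 3 and 4 and exercised 1, 2, 3 and 5) and with the GC trend removed. The catalytic genes Atp5a1 and Atp5b were not called by edgeR, at -0.24 ± 0.11 and -0.28 ± 0.11 in wild type (adjusted p = 0.156 and 0.112). In wild type, limma-voom called Atp5b and Atp5f1 lower and Atp5h, Atp5j, Atp5k and Atp5s higher. DESeq2 called Atp5f1 lower and Atp5h and Atp5s higher there.

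**Figure D2:**
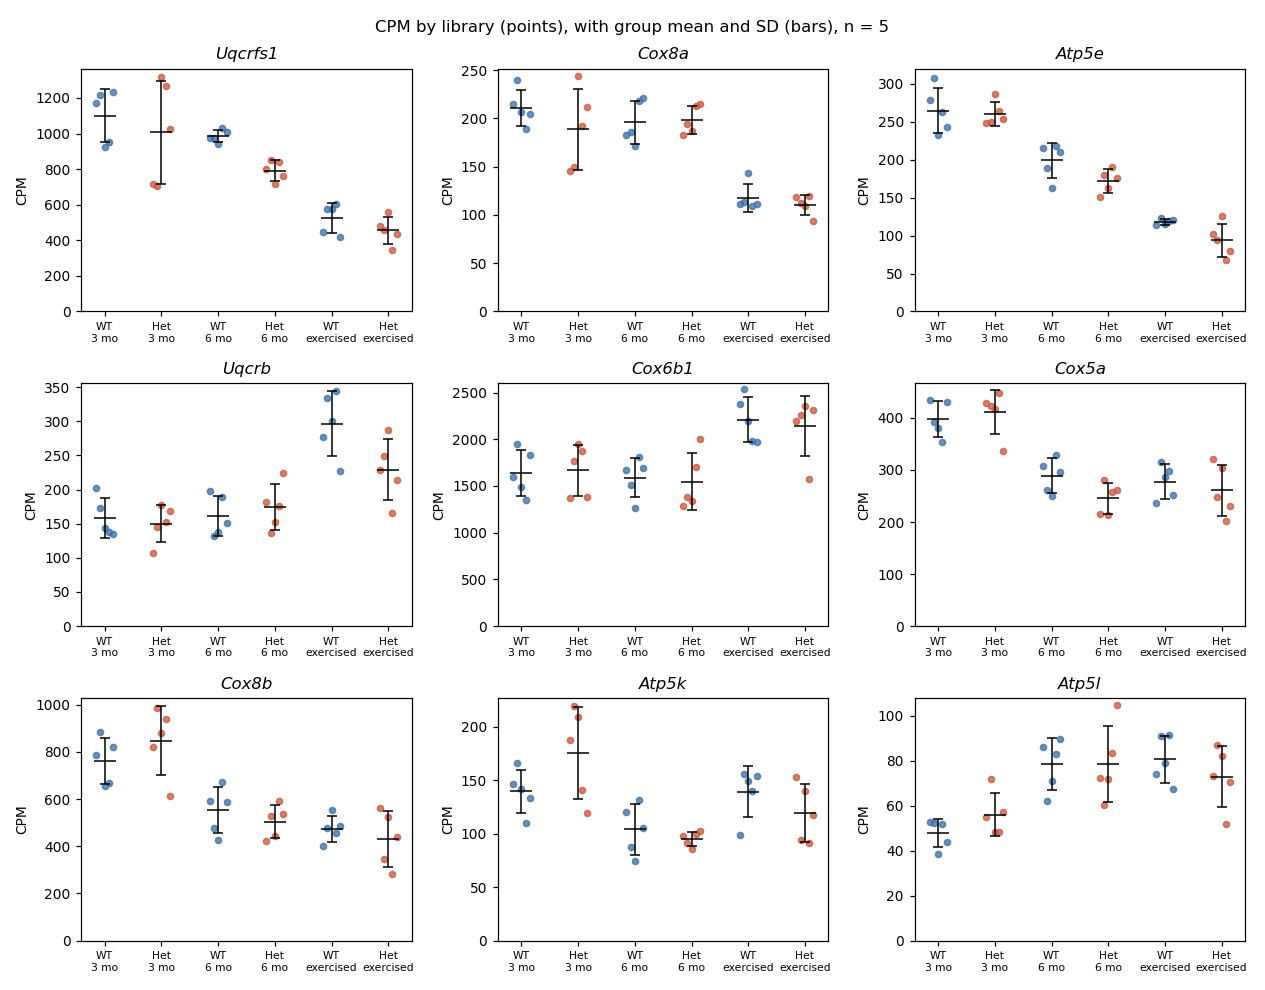
CPM of 9 members in each of the 30 libraries (points, from replicate 1 to 5 left to right in each group), with the group mean and SD as bars. Exercised libraries of Uqcrfs1, Cox8a and Atp5e lie below all 6-month regular-activity libraries of the same genotype, Uqcrb and Cox6b1 rise in wild type, and Cox5a, Cox8b and Atp5k are lower in 6-month than in 3-month heterozygotes.

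Over all members, 12 of 42 were called with exercise in wild type, where 9.69% of all genes tested were called (4.64% higher and 5.05% lower). In heterozygotes 11 of 42 were called, against 8.82% of all genes (5.34% higher and 3.48% lower). The median log2 fold change of the 42 was -0.17 in wild type and -0.18 in heterozygotes, with 28 and 29 members lower, and that of all genes tested was 0.01 and -0.00. By complex the median was -0.27, -0.12 and -0.07 for III, IV and V in wild type and -0.35, -0.19 and -0.11 in heterozygotes. Leaving out exercised wild type 1 gave 11 calls in wild type, and leaving out exercised heterozygote 4 gave 12 in heterozygotes. Without both, the counts were 16 and 13. Markers of fibroblasts, endothelium and macrophages had medians of -0.21, 0.32 and 0.06 with exercise in wild type and -0.53, -0.49 and -0.50 in heterozygotes, with 0 called. Cardiac myocyte markers had medians of 0.07 and 0.13, with 1 of 9 called higher in wild type and 2 of 9 in heterozygotes. The part of these markers in the result was not tested.

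The exercise comparisons of wild type and heterozygotes share no library, although the exercised libraries of both genotypes belong to 1 library set. Of the 12 members called in wild type, 10 (83.3%) were called in heterozygotes, which is 90.9% of the 11 called there, and all 10 had the same direction. Neither this overlap nor the correlation below was worked out over all genes tested, so neither is shown to be particular to the members. Uqcrb and Uqcrh were called in wild type alone and Atp5s in heterozygotes alone. Without exercised heterozygote 4, both Uqcrb and Uqcrh were called higher in heterozygotes too (0.49 and 0.42, edgeR adjusted p = 0.0441 and 0.0394), as they were by limma-voom, and DESeq2 and limma-voom called Atp5s higher in wild type (adjusted p = 0.0409 and 0.0233). Across the 42 members, which share libraries and depth and are not independent, the log2 fold changes of both genotypes had a Pearson r of 0.80 and a Spearman rho of 0.82, and 33 had the same sign. No member was called for a genotype difference in the exercise response, where 0.0128% of all genes tested were; DESeq2 and limma-voom also called 0 members, and 1 member (2.38%) against 4.91% of all genes had an unadjusted p under 0.05.

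**Figure D3:**
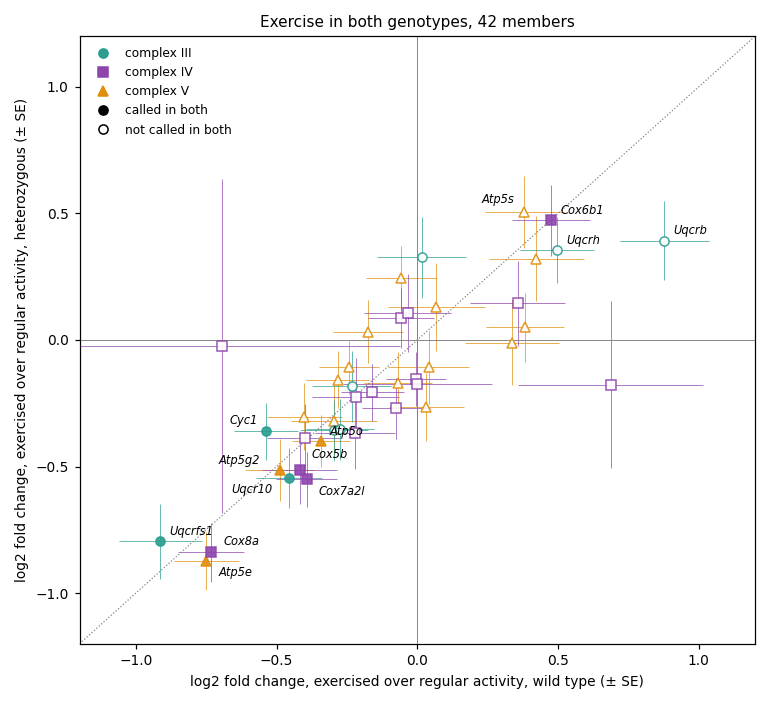
Fitted log2 fold change of each of the 42 tested members with exercise in wild type (x axis) and in heterozygotes (y axis), with SE bars; symbols give the complex, filled symbols the 10 members called in both, and the dotted line equality. Uqcrfs1, Cox8a and Atp5e lie at the lower left, Cox6b1 at the upper right, and Uqcrb lies to the right of the line.

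GC content went with part of this. Over the 42 members, the exercise log2 fold change and the GC content of the reference transcript had r = -0.28 in both genotypes, as a description. With a trend on GC removed from all genes, 9 members were called in wild type (3 higher, 6 lower) and 8 in heterozygotes (1 higher, 7 lower), and r became 0.03 and 0.02. Uqcrfs1, Cox8a and Atp5e were called in both genotypes after that step.

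Age in heterozygotes moved 9 of 42 members past the threshold, 8 lower and 1 higher, where 3.43% of all genes tested were called (1.46% higher and 1.96% lower). In complex IV, 4 of 16 tested genes were called, all lower at 6 months than at 3 months: Cox5a, Cox8b, Cox4i1 and Cox7a1. Cox5a had 429, 424, 418, 448 and 337 CPM at 3 months, of which 418 is the library labelled heterozygote 3, and 215, 280, 214, 258 and 261 at 6 months. The groups did not overlap (-0.74 ± 0.12, edgeR adjusted p = 0.000248). Cox8b, the heart and muscle form, had 820, 987, 879, 940 and 612 against 423, 529, 444, 591 and 536 (-0.75 ± 0.16, adjusted p = 0.00465), also without overlap. Cox4i1, an early-assembling subunit, averaged 1419 ± 225 against 1044 ± 75.4 CPM (-0.44 ± 0.11, adjusted p = 0.024), and the heart-type Cox7a1 515 ± 92.98 against 340 ± 22.5 (-0.60 ± 0.17, adjusted p = 0.0438). Cox4i1 was lost in 6 of 10 fits without 1 library (3-month 3 and 4 and 6-month 1, 3, 4 and 5), and Cox7a1 in 9 of 10, all but the fit without 3-month heterozygote 5, and in 8 of 11 other alternatives.

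Complex V gave the other 5. Atp5k, the small membrane subunit e of the dimer interface, had 188, 220, 209, 141 and 120 CPM at 3 months and 98.1, 90.9, 86.1, 99.6 and 102 at 6 months (-0.88 ± 0.17, edgeR adjusted p = 0.00212), all lower. The c-ring gene Atp5g3 had 670, 624, 696, 740 and 499 against 374, 444, 395, 429 and 453 (-0.62 ± 0.13, adjusted p = 0.00378). Atp5e averaged 260 ± 15.7 against 172 ± 15.5 (-0.60 ± 0.12, adjusted p = 0.00212). Atp5e, Atp5k, Atp5g3, Cox5a and Cox8b kept their calls in every alternative run. Atp5d, the delta subunit gene, fell by 0.47 ± 0.12 (adjusted p = 0.0333), and Atp5g2 rose by 0.42 ± 0.12 (adjusted p = 0.0494). Both lost the call in most leave-one-out fits, Atp5d in 6 of 10 (3-month 3, 4 and 5 and 6-month 1, 3 and 5) and Atp5g2 in 8 of 10 (3-month 1, 2, 4 and 5 and 6-month 1, 3, 4 and 5). Complex III had 0 of 9 called, but 7 (77.8%) had an unadjusted p under 0.05 against 19.6% of all genes, and 8 were lower. Its smallest edgeR adjusted p was 0.0558. DESeq2 also called Uqcrh, Atp5b and Atp5a1 lower and Atp5l higher. limma-voom added Uqcrh, Uqcr10, Uqcrq, Atp5j and Atp5a1, all lower. Without 3-month heterozygotes 1 and 2, edgeR called Uqcrc1 and Uqcrfs1 lower too (adjusted p = 0.0132 and 0.0107).

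Fibroblast, endothelial and macrophage markers moved in the opposite sense in the same comparison: 4 of 8, 3 of 8 and 3 of 8 were called higher with age in heterozygotes, with medians of 1.41, 1.08 and 1.42, and their part in the members' values was not tested. Cardiac myocyte markers had a median of -0.30, and 1 of 9 was called lower. Without the library labelled heterozygote 3 at 3 months the count of members called was 6 (1 higher, 5 lower), without 3-month heterozygote 4 it was 5, and without 6-month heterozygote 1 or 3 it was 5.

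In wild type, age moved 2 members past the threshold, both of complex V and both higher, where 0.86% of all genes tested were called (0.398% higher and 0.462% lower). Atp5l, the small membrane subunit g, had 52.6, 52.4, 38.5, 51.8 and 44.0 CPM at 3 months and 86.2, 62.1, 70.8, 82.9 and 89.9 at 6 months, without overlap (0.71 ± 0.14, edgeR adjusted p = 0.00912). Atp5g2 averaged 364 ± 33.5 against 521 ± 51.8 CPM (0.52 ± 0.12, adjusted p = 0.031). Atp5l was called in all alternatives, and Atp5g2 was lost without any of 6 libraries (3-month 3, 4 and 5, 6-month 1, 4 and 5), which leaves 1 call. Over most of both transcripts, reads cannot be told from those of copies, as described above. DESeq2, limma-voom and the fit with the length trend removed each called 4 members, adding Cox5a and Atp5e as lower. Cox5a, which 8 alternatives called lower, was just short of the call by edgeR (-0.46 ± 0.12, adjusted p = 0.0501), at 398 ± 34.1 CPM at 3 months and 289 ± 32.9 at 6 months, which did not overlap.

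The median over the members was -0.10 with age in wild type and -0.26 in heterozygotes, with 29 and 33 of 42 lower, against 0.01 and -0.02 over all genes tested. The age comparisons share no library: 1 member, Atp5g2, was called in both, which is 50% of those called in wild type and 11.1% of those in heterozygotes. Across the 42, the Pearson r was 0.66 and the Spearman rho 0.70, with 34 of the same sign. Here too, the overlap and the correlation were not worked out over all genes tested. For the difference of the age effect between genotypes, edgeR called 0 members and 0% of all genes, no member had an unadjusted p under 0.05, and DESeq2 and limma-voom called 0 members as well. A call in 1 genotype alone is therefore not shown to be a difference between genotypes.

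Age and exercise comparisons of a genotype share the 6-month regular-activity libraries. Their values for some members are set side by side without further reading. Atp5g2 in wild type averaged 364 CPM at 3 months, 521 at 6 months and 372 ± 26.3 with exercise. Atp5e in heterozygotes went from 260 to 172 and then to 93.9 ± 22.0. Cox5a in heterozygotes stood at 411 ± 43.0, 246 ± 29.8 and 261 ± 49.6 CPM.

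**Figure D4:**
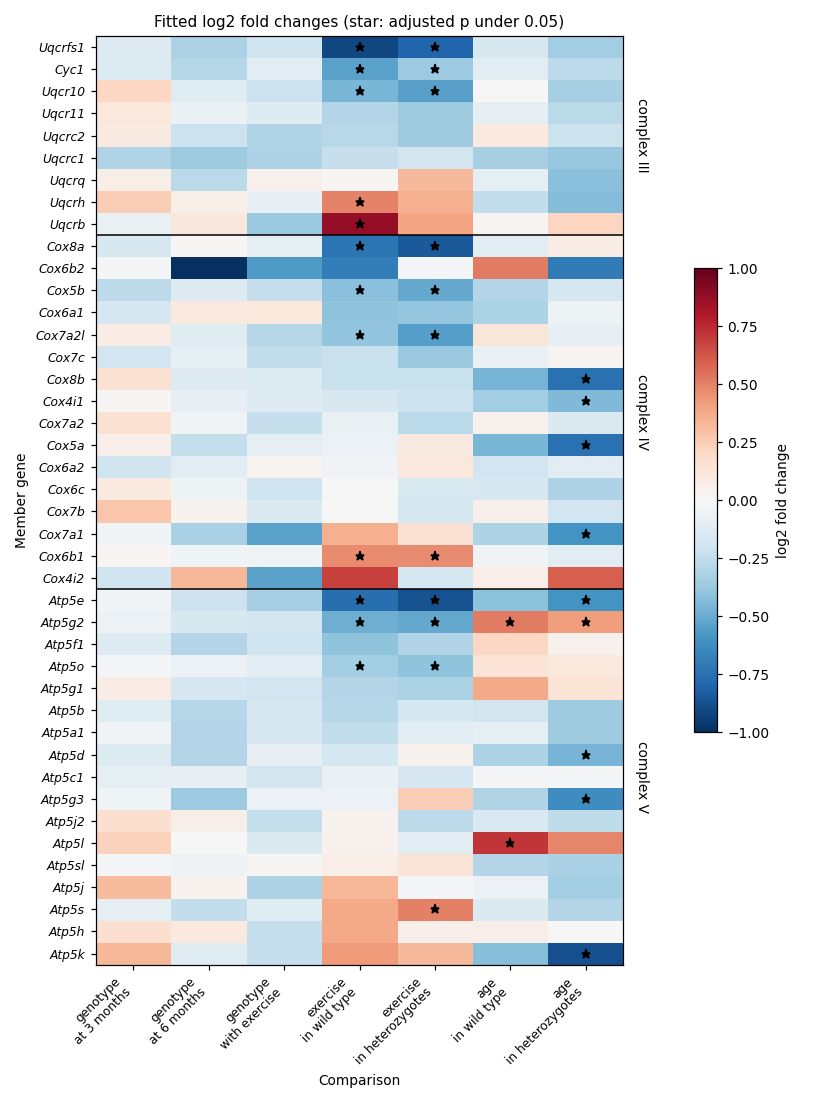
Fitted log2 fold change (colour, blue lower and red higher) of the 42 tested members in the 7 comparisons between groups; stars mark the calls. Stars stand in the exercise and age columns and in none of the 3 genotype columns, and the 10 members called in both exercise columns have the same direction in both; the colour scale ends at 1 and -1, which Cox6b2 at 6 months exceeds (-1.23, not called).

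Genotype moved no member past the threshold. At 3 months 0 of 42 were called, where 0.192% of all genes tested were, and 1 (2.38%) had an unadjusted p under 0.05 against 11.05% of all genes, Uqcrc1 (-0.30 ± 0.14, edgeR adjusted p = 0.417). The median was -0.02. Leaving out the library labelled heterozygote 3, or heterozygotes 1 and 2, also gave 0 calls. DESeq2 and limma-voom called 0 members there.

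At 6 months with regular activity 0 of 42 were called against 0.135% of all genes, with 8 (19.05%) at an unadjusted p under 0.05 against 8.79% of all genes, all 8 lower in heterozygotes. They are Atp5a1, Atp5b, Atp5d, Atp5f1 and Atp5g3 of complex V and Cyc1, Uqcrc1 and Uqcrfs1 of complex III. Cyc1 had 695, 649, 628, 735 and 634 CPM in wild types and 545, 573, 526, 518 and 585 in heterozygotes, which do not overlap, yet the fit gave -0.28 ± 0.11 (edgeR adjusted p = 0.435). Uqcrfs1, whose values are given above, did not overlap either (-0.32 ± 0.15, adjusted p = 0.547). The smallest p was that of Atp5g3, 539 ± 73.7 against 419 ± 33.4 CPM (-0.36 ± 0.13, adjusted p = 0.357). DESeq2 called 0 members and limma-voom 2, Atp5b and Atp5a1 (-0.29 and -0.31, adjusted p = 0.0445 and 0.0234), both lower. The median was -0.12, with 32 of 42 lower. All 8 fibroblast, all 8 endothelial and all 8 macrophage markers were higher in these heterozygotes, with medians of 1.01, 0.40 and 1.40 and 0 called, and 8 of 9 cardiac myocyte markers were lower (median -0.19); their part was not tested.

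With exercise 0 of 42 were called between genotypes against 0.404% of all genes, 6 (14.3%) had an unadjusted p under 0.05 against 9.78% of all genes, all 6 lower in heterozygotes, and the median was -0.18, with 38 of 42 lower. The smallest p was that of Cox7a1, 545 ± 48.6 CPM in wild types and 376 ± 125 in heterozygotes (-0.53 ± 0.17, edgeR adjusted p = 0.191). Exercised heterozygote 4 had 186 CPM of it, and the other 4 had 326 to 513. limma-voom called Cox7a1 (-0.55, adjusted p = 0.0262) and DESeq2 0 members. Without exercised wild type 1 and heterozygote 4, edgeR still called 0. Fibroblast and macrophage markers were higher in exercised heterozygotes in 8 of 8 each (medians 0.61 and 0.58), endothelial markers lower in 7 of 8 (-0.41) and cardiac myocyte markers lower in 6 of 9 (-0.23), with 0 called; their part was not tested.

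Summed over the 44 members, the level was highest at 3 months and lowest with exercise in both genotypes. Wild types had 38877 ± 3193 CPM at 3 months (SD over 5 libraries), 36172 ± 2587 at 6 months and 31973 ± 2822 after exercise. The heterozygote sums were 37418 ± 4165, 31482 ± 1875 and 28681 ± 4548. Wild types at 6 months ran from 32582 to 39086 and heterozygotes from 29255 to 33384, which overlap. Exercised heterozygote 4 had 21195, against 28561 to 32842 in the other 4. For the 6 transcripts of complexes III, IV and V that come from mitochondrial DNA, summed counts were divided by the nuclear member counts. The ratio averaged 2.19, 1.72, 3.04, 4.04, 7.07 and 7.43 from wild type to heterozygotes at 3 months, then 6 months, then exercised. It was 16.0 in exercised wild type 1 and 4.26 to 5.48 in the other 4. Such a ratio also rises where the nuclear sum falls. The mitochondrial sums averaged 85004.5, 64394, 109600, 126856, 216966 and 212726 CPM in the same order. Most of the sum was mt-Co1, with 100596 of 109600 CPM in 6-month wild type. With age in wild type, 3 of the 6 transcripts were higher and 3 lower.

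Of those 6 mitochondrial transcripts, 5 were called higher with exercise in wild type (median 2.16) and 3 in heterozygotes (median 1.29), where 4.64% and 5.34% of all genes were. The complex IV core subunit mt-Co2 was at 2.496 ± 0.329 and 1.87 ± 0.32 (edgeR adjusted p = 2.66e-05 and 0.000527). Age in heterozygotes called mt-Co1 higher (1.02 ± 0.26, adjusted p = 0.0287), and none of the 6 was called in age of wild type or between genotypes.

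Forms of a subunit were compared in pairs within a library as the log2 ratio of their counts, with exact two-sided permutation tests of 5 libraries against 5, for which the smallest p is 0.00794, adjusted over the 5 ratios of a comparison. Cox6a2 to Cox6a1, Cox7a1 to Cox7a2 and Cox8b to Cox8a set a heart form against a widely expressed one. Atp5g1 to Atp5g3 and Cox4i2 to Cox4i1 are not pairs of that kind. Counts are not divided by length here, so only differences in a ratio are read. Exercise in wild type shifted 3 ratios. Cox7a1 to Cox7a2 went from 1.13 ± 0.11 to 1.57 ± 0.08 (SD, n = 5, difference 0.44, exact permutation adjusted p = 0.0132) and Cox8b to Cox8a from 1.48 ± 0.17 to 2.01 ± 0.11 (0.52, exact permutation adjusted p = 0.0132), both toward the heart form. Atp5g1 to Atp5g3 went from 2.18 ± 0.04 to 1.92 ± 0.19 (-0.26, exact permutation adjusted p = 0.0132). None of the 3 overlapped between groups, and the last did not pass without 6-month wild type 3 or 5.

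The same 3 ratios differed by 0.33, 0.58 and -0.55 with exercise in heterozygotes, where no ratio passed (lowest exact permutation adjusted p = 0.0794). Exercised heterozygote 4 had the lowest value of its group for Cox7a1 to Cox7a2 (0.46, others 1.06 to 1.67) and for Cox8b to Cox8a (1.25, others 1.62 to 2.27).

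With age the shifts ran the other way for the complex IV pairs. Cox7a1 to Cox7a2 differed by -0.37 in wild type and -0.45 in heterozygotes (exact permutation adjusted p = 0.0265 and 0.0132), and Cox8b to Cox8a by -0.36 and -0.84 (exact permutation adjusted p = 0.0265 and 0.0132). In wild type the former did not pass without 3-month wild type 2, 4 or 5 and the latter without 1, 2, 4 or 5. Atp5g1 to Atp5g3 differed by 0.70 and 0.74 (exact permutation adjusted p = 0.0265 and 0.0198). Cox4i2 to Cox4i1, with Cox4i2 at 1.53 to 9.79 CPM, differed by 1.09 in heterozygotes (exact permutation adjusted p = 0.0132). Between genotypes 1 ratio passed, Cox7a1 to Cox7a2 at 6 months, with 1.09, 1.13, 1.10, 1.31 and 1.01 in wild types and 0.92, 0.98, 0.86, 0.83 and 0.68 in heterozygotes, without overlap (-0.27, exact permutation adjusted p = 0.0397). Without wild type 2, 3 or 4 or heterozygote 5 it did not pass (exact permutation adjusted p = 0.0794). Cox6a2 to Cox6a1 passed in none of the 7 comparisons.

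**Figure D5:**
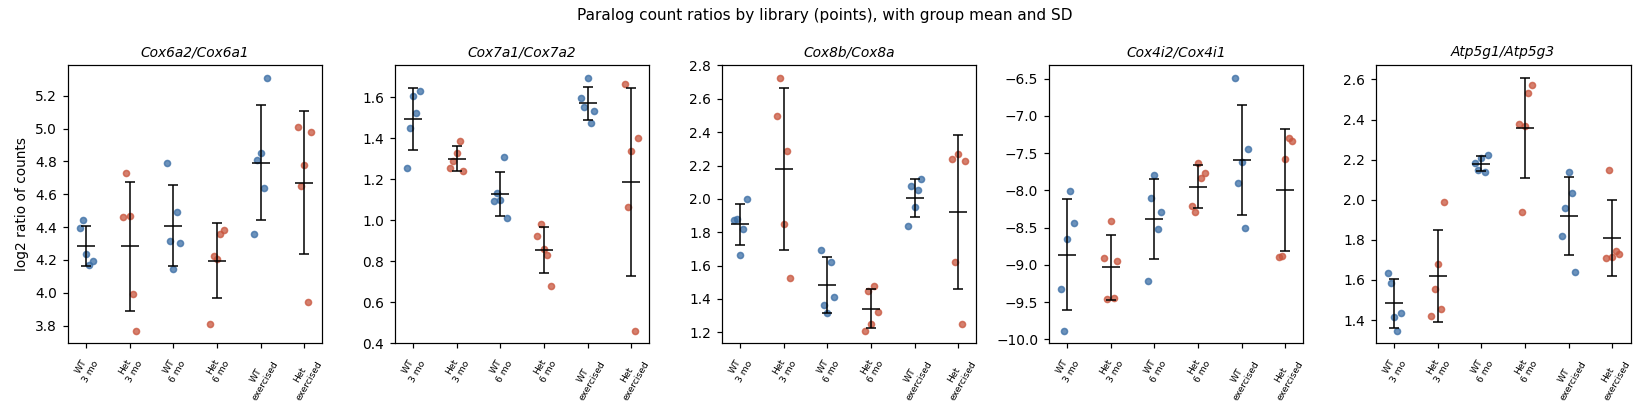
Log2 ratio of the counts of 2 forms of a subunit in each library (points), with group mean and SD; the vertical axes differ between panels. Cox7a1 to Cox7a2 and Cox8b to Cox8a are lower at 6 months than at 3 months and higher again in the exercised wild types, and 1 exercised heterozygote lies apart at 0.46 in the former.

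Genes that build or steer the complexes were taken from lists. Of 23 tested genes for complex IV assembly and copper delivery, exercise called 2 lower and 0 higher in wild type (median -0.13) and 1 lower in heterozygotes (median -0.15), where 9.69% and 8.82% of all genes were called, so neither count stands above the background. Cox14, which helps make mt-Co1, fell by 0.91 ± 0.12 and 0.78 ± 0.12 on the log2 scale (edgeR adjusted p = 1.45e-05 and 6.95e-05), and Cox18, an inserter of mt-Co2, fell by 0.85 ± 0.22 in wild type (adjusted p = 0.0121). Age in heterozygotes called 4 of the 23 lower and 0 higher (median -0.27), where 1.96% of all genes were called lower and 1.46% higher. Among the 4 were Cox10 (-0.54 ± 0.12, adjusted p = 0.0136) and Cox11 (-1.05 ± 0.29, adjusted p = 0.04), which serve heme synthesis and copper insertion. For complex III assembly 0 of 6 were called with exercise (medians 0.19 and 0.15), and Uqcc2 alone was called lower with age in heterozygotes (-0.54 ± 0.15, adjusted p = 0.0429).

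For complex V, the assembly factor Tmem70 fell with exercise by 0.53 ± 0.13 and 0.43 ± 0.13 (edgeR adjusted p = 0.00799 and 0.0325), and the inhibitor Atpif1 rose in wild type (0.97 ± 0.27, adjusted p = 0.0199), of 4 genes tested. Among 4 complex II genes 3 were called lower with exercise in wild type and 2 in heterozygotes, Sdhb and Sdhd in both. Of 36 nuclear complex I genes, 1 was called higher and 8 called lower in wild type and 0 and 10 in heterozygotes. Over all genes tested, exercise called 4.64% higher and 5.05% lower in wild type and 5.34% and 3.48% in heterozygotes. Cycs, the cytochrome c gene, and Hccs, the enzyme that attaches its heme, were not called in any comparison.

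Among 15 regulators, 4 were called higher and 1 called lower with exercise in each genotype. The shares of all genes tested were 4.64% higher and 5.05% lower in wild type and 5.34% and 3.48% in heterozygotes. Ppargc1a, the coactivator PGC-1 alpha that drives mitochondrial biogenesis, rose by 1.04 ± 0.25 in wild type and 0.83 ± 0.25 in heterozygotes (edgeR adjusted p = 0.00827 and 0.036). Esrrg, an estrogen-related receptor, rose by 0.41 ± 0.13 and 0.64 ± 0.13 (adjusted p = 0.0429 and 0.00179), and Gabpa, an ETS factor, by 0.31 ± 0.10 and 0.36 ± 0.10 (adjusted p = 0.0493 and 0.0235). Esrra fell by 0.46 ± 0.11 in wild type (adjusted p = 0.00888) and by 0.61 ± 0.11 with age in heterozygotes (adjusted p = 0.0017). No gene of any of the 8 lists was called between genotypes.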

How the data were processed

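RNA was sequenced strand-specifically in paired ends after ribosomal depletion, per the labels' protocols, which name a TruSeq v2 library kit. The submitters' processing notes list HISAT2, featureCounts, Trim Galore and, as the build, mm10. The annotation release, the versions and the strand setting are not given in the sources used here. Each deposited value is a whole-number count of reads for a gene in a library, not normalized. Total counts ran from 11232143 to 23710331 per library, and 23 spike-in controls were kept out of the fits.

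One edgeR 4.0.16 quasi-likelihood model (R 4.3.3) was fitted to the 30 libraries of 6 groups with TMM scaling and edgeR's filter on low counts, which left 15587 genes and 24 residual degrees of freedom. A gene was called at a Benjamini-Hochberg adjusted p under 0.05 over all genes tested. CPM were TMM-scaled, and fitted fold changes use edgeR's default prior count. A prior count of 2 was used for log2 CPM only. DESeq2 1.42.0, limma-voom with sample quality weights (limma 3.58.1), other scalings and filters, trends on GC content and transcript length, and leaving out libraries were alternatives. The GC settings were added after seeing the data. Ratios between forms of a subunit were tested by exact permutation.

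The members, the gene lists and the tests were chosen with earlier results of these data known. Named are the members called in a comparison, those with the smallest p in each complex, pairs of forms, defining subunits, members below the filter, and up to 3 genes per list with the smallest p. The fit was tested on simulated data, with changes in exercised wild type set for genes drawn from all 15587 tested. At a true log2 change of -1 and 1, 22 and 27 of 50 genes were called. At -0.5 and 0.5 the numbers were 8 and 14 of 50, so most of the drawn genes were missed at that size. The share called among the members alone was not tested. A gene that is not called is not shown to be unchanged.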

Additional observations from a re-analysis of the deposited data

Results flagged for a closer look

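In 16 of 282 groups of 5 libraries, the gap between 1 library and the rest of its group, divided by the range, was above 0.71. Chance gives about 1 in 20 groups, so this is near the number that chance would give. Of 168 pairs of comparisons, 0 had every library of one genotype moving one way and every library of the other the opposite way.

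Exercised heterozygote 4 was low for 5 members: Uqcrc1 at 748.6 CPM (others 1115 to 1304), Cox6a2 at 1199 (others 1968 to 2353), Cox6b1 at 1580 (others 2198 to 2354), Atp5c1 at 804.5 (others 1145 to 1229) and Atp5g2 at 223 (others 333 to 381). Exercised wild type 1 was low for 3: Cox7a2 at 155.8 CPM (others 186 to 194), Atp5b at 4658 (others 5942 to 6450) and Atp5k at 98.41 (others 140 to 156).

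Exercised wild type 3 was high for Cox8a, at 143.4 CPM against 110 to 113. At 3 months, wild type 4 was low for Uqcrq (82.78, others 133 to 146) and wild type 3 for Atp5b (7449, others 8343 to 8512) and Atp5sl (59.21, others 99.9 to 111). Heterozygote 5 at 3 months was low for Cox5a (337.1, others 418 to 448). Heterozygote 5 at 6 months was high for Atp5j (148.3, others 97.3 to 101) and Atp5s (20.44, others 14.5 to 15.5). The log2 ratio of Atp5g1 to Atp5g3 was 2.15 in exercised heterozygote 2 and 1.71 to 1.74 in the other 4.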

How the results depend on the processing

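Counts of called members moved most with limma-voom with sample quality weights, where method and weighting change together, which gave 2 for genotype at 6 months and 1 with exercise (edgeR 0 and 0), 20 and 17 for exercise in wild type and heterozygotes (edgeR 12 and 11) and 4 for age in wild type (edgeR 2). Age in wild type also gave 4 with DESeq2 and 4 with the length trend removed. The cause was not tested. Leaving out 1 library gave 9 to 12 and 8 to 12 for exercise in wild type and heterozygotes, 1 to 2 for age in wild type, 5 to 11 for age in heterozygotes and 0 for each genotype comparison. The fold change of Cox8a, genotype at 3 months, turned from -0.16 to 0.03487 without heterozygotes 1 and 2. The fits without 1 library were counted for the members called in a comparison and those with the smallest p in complexes with few calls. Of these values 503 kept their side of the threshold, 75 lost the call and 2 gained it. Outside this set other members gained calls too, such as Uqcrc2 and Uqcr11 for exercise in heterozygotes without exercised heterozygote 1. Replicate numbers are shared between groups but do not pair the libraries: of 35 pairs, 3 correlated above 0.1 (range -0.25 to 0.15). With the replicate block, age in wild type gave 1 call. Depth limits Cox4i2 and Cox6b2, whose levels were under 10 CPM in every library, and Cox7b2 and Cox8c, which were not tested.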
